A study of Mus musculus with 9 samples.

Results

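Mouse Gdf15 and 8 stress genes were followed in the lactating mammary gland of WT mice and of mice that carry a human NAG-1 transgene (hNAG-1). NAG-1 is another name for GDF15, and the array carries a probe for the animal's own Gdf15 gene. The 9 genes were Gdf15, Atf3, Atf4, Ddit3, Trib3, Asns, Egr1, Trp53 and Cdkn1a. They were chosen by name, and every probe with one of these names was kept, which gave 11 of the 41174 probes, and 9 of the 27962 gene names, on the array. Trib3 and Trp53 had 2 probes each and the other genes 1. All 11 probes were well above background on all 9 arrays, and no filter on low values removed any of them.

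Mammary gland number 4 was taken on lactation day 2 from 4 WT dams and 5 hNAG-1 dams, with 1 array for each. Neither group received an agent, and the glands were taken after the fourth litter. The labelled strain background was C57BL/7 in both, a spelling that differs from the C57BL strain named in the study's text. The transgene was made to be expressed in all tissues, and a pair of transgenic lines was kept. The study worked mainly with 1 of these lines and pooled both in some experiments. Which line each dam on the arrays came from, and the promoter of the transgene, are not given in the sources used here. The labels place the arrays on 3 slides. WT 1 was on slide 1 and hNAG-1 1 to 4 were on slide 2, while WT 2 to 4 shared slide 3 with hNAG-1 5, the only slide with both genotypes.

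The integrated stress response is a shared answer of cells to amino acid shortage, misfolded protein, heme shortage and viral RNA. Kinases that sense these stresses phosphorylate the initiation factor eIF2, which slows protein synthesis while the transcription factor ATF4 is still made. ATF4 and its partner CHOP, the product of Ddit3, then switch on genes for amino acid supply and redox balance, and Gdf15 is a well known target of both. The secreted GDF15 protein acts on the receptor GFRAL in the hindbrain and lowers food intake. Gdf15 is also induced through p53, which switches on Cdkn1a as well, and through EGR1.

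All values are scaled intensities: the background-subtracted signal of a probe after every array was brought to the same 75th percentile. Differences are on the log2 scale, hNAG-1 minus WT. Each array brought its own brightness, with a 75th percentile of 509 to 1133 before scaling, and 59.8% to 76.1% of its features were well above background. Across all probes, limma gave an unadjusted p under 0.05 for 2315 of 41174, or 5.62%, and an adjusted p under 0.05 for 1. That last count was 215 without hNAG-1 5 and 137 with slide as a block. Of the 2315 probes 21.4% were higher in hNAG-1 and the rest lower. The split depended on scaling, since 70.7% were higher when arrays were scaled to their median, 57.5% after quantile normalization, 54.2% after normexp background correction and 2.86% with no scaling. It also turned with slide, as 90.6% of the probes called were higher with slide as a block and 91.4% on slide 3 alone, where hNAG-1 5 is the only hNAG-1 array. The median over all probes was -0.01 in the reported fit, 0.20 under median scaling and -0.16 without scaling. All 7 luminal epithelial markers, Krt8, Krt18, Epcam, Elf5, Csn2, Wap and Lalba, were well above background on all 9 arrays.

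The sequence that stood for Gdf15 on the array is shown because every Gdf15 value here rests on this single stretch. It is a 60-base probe whose coordinates in the array's annotation are chr8:69084712-69084771 in build mm7, on the minus strand, and it reads without a stop codon in 2 of its 3 frames.

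Gdf15 probe A_52_P532982: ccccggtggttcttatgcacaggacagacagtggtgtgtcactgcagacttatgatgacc

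Whether the human transcript binds this mouse probe was not tested, and the hNAG-1 arrays were the ones with the lower signal.

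The stress factors bind short DNA motifs, and 4 of these were searched on both strands in the promoter windows that RefSeq gives for assembly GRCm38.p6, from 250 bases before to 50 bases after each start. Of the 9 genes 8 had a window, 10 windows in all, among 32851 windows of the same length. The core of the C/EBP-ATF response element, TGATGNAA, was in 3.97% of all windows, and Asns, Atf3 and Trib3 were among the genes that held it. The matches are shown with their flanks to place the motif in each gene. The 3 genes lie on the minus strand, the strand of the gene is given 5′ to 3′, and capitals mark the motif or its reverse complement.

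Asns, chr6:7693214-7693243: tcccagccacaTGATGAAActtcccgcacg

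Atf3, chr1:191183425-191183454: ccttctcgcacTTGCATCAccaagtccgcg

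Trib3, chr2:152344028-152344057: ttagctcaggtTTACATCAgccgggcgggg

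The match began 23 bases before the start of Asns and 110 bases before that of Atf3, and it lay just after the start of Trib3. The p53 half-site consensus was in 8.36% of windows, among them those of Trp53 and Cdkn1a, and Cdkn1a held 2 matches, which began 73 and 51 bases before its start. The Cdkn1a match nearer to the start is shown on the plus strand, with the half-site in capitals.

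Cdkn1a, chr17:29090918-29090947: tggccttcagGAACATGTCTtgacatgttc

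The cAMP response element TGACGTCA, in 1.79% of all windows, and the EGR site GCGTGGGCG, in 0.612%, were in no window of these genes. Neither window of Gdf15 held any of the 4 motifs, which says only that these letters are not in these 300 bases.

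Gdf15 was the gene of the set with the clearest difference, and it was lower in hNAG-1. Its scaled intensity was 86.3, 153.9, 212.1 and 139.6 in WT 1 to 4. In hNAG-1 1 to 5 it was 63.8, 50.04, 80.1, 94.1 and 105.9. WT 2 to 4 lay above every hNAG-1 gland, while WT 1 fell among the hNAG-1 values. The genotypes thus overlapped, and 3 of 5 hNAG-1 glands lay below all WT glands. The WT mean was 148 ± 51.7 (SD, n = 4) and the hNAG-1 mean 78.8 ± 22.5 (SD, n = 5). The difference was -0.89 with a standard error of 0.30 and a 95% interval from -1.57 to -0.21, which is 1.85-fold higher in WT. The unadjusted limma p was 0.0159, the adjusted p over all probes was 0.654, and the exact permutation test over the 126 splits of the arrays gave 0.0397, two-sided, where 0.00794 is the smallest it can give. An unadjusted p under 0.05 with a lower level in hNAG-1 was given to 4.42% of all probes, and 6.55% had a difference as low as that of Gdf15 or lower.

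The size of the Gdf15 difference depended on the arrays used, the slides and the background correction. It was -0.48 with normexp background correction, and -1.12 without WT 1 and with array weights. Without WT 3, the brightest array for Gdf15, it was -0.69 with an unadjusted limma p of 0.0513. With slide as a block it was -0.65 with a standard error of 0.41 and an unadjusted limma p of 0.152, a value that rests on hNAG-1 5 against WT 2 to 4, the only genotypes that shared a slide. On that slide hNAG-1 5 had the lowest Gdf15 of the 4 glands.

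**Figure D1:**
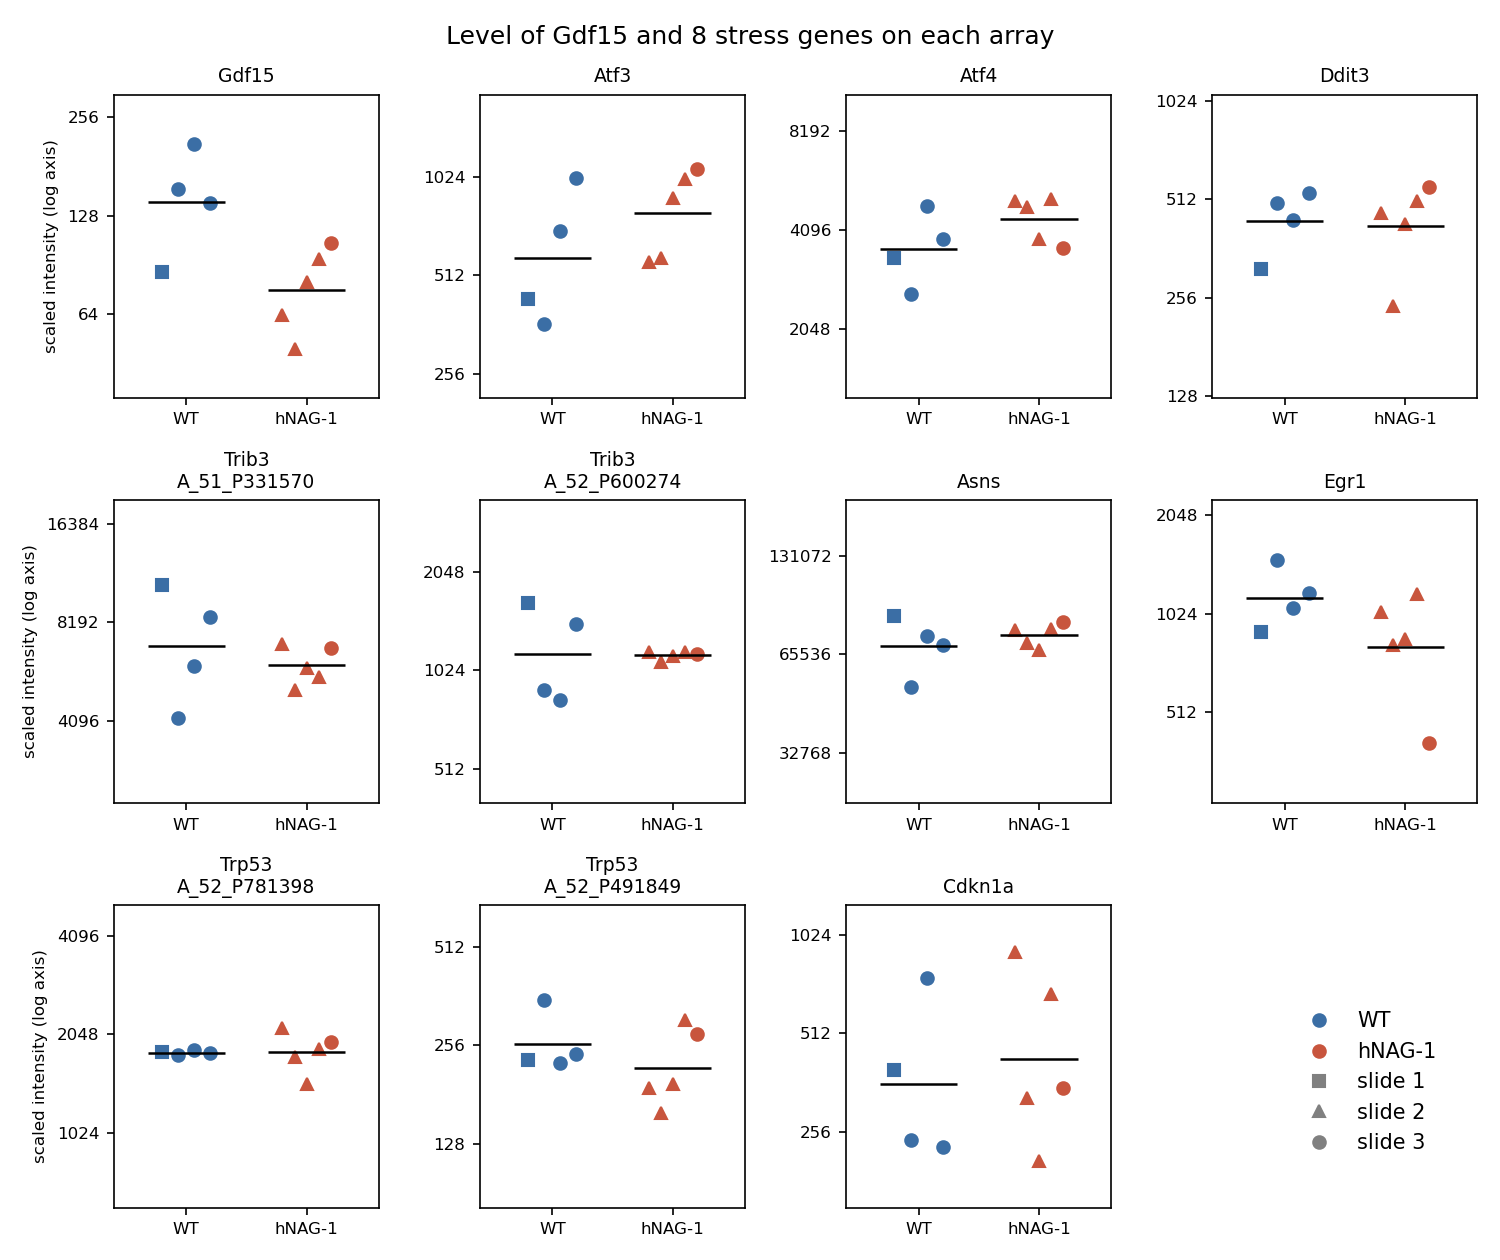
Scaled intensity (log axis, 1 panel a probe, each spanning the same number of doublings) on each of the 4 WT and 5 hNAG-1 arrays, with the slide as the marker shape and the mean of log2 values as a black line. Gdf15 lies between 50.04 and 105.9 in hNAG-1 and between 86.3 and 212.1 in WT, while the other 10 probes overlap widely.

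Markers of other cell types varied between glands as well, and 3 lists had a lower median in hNAG-1, as Gdf15 did. All 5 skeletal muscle markers (Acta1, Ckm, Myh4, Mylpf and Tnnt3) had a lower mean in hNAG-1, with a median difference of -1.95, and none had an unadjusted p under 0.05. Their summed intensity was 3932, 30503, 15991 and 90015 in WT 1 to 4 and 2614 to 28199 in hNAG-1. WT 4 stood far above the rest, and the median difference was -1.08 without it, while without WT 1 it was -2.90, with an unadjusted p under 0.05 for 3 of the markers. All 6 lymphocyte markers were lower too, with a median of -1.15 and no p under 0.05, and their sum was 4890, 28682, 1345 and 1105 in WT 1 to 4 and 805.6 to 4436 in hNAG-1. WT 2 carried most of this difference, since WT 3 and WT 4 lay within the hNAG-1 range and the median was -0.35 without WT 2. With slide as a block the muscle median was -0.77 and the lymphocyte median -0.71. The macrophage median was -0.10, with 4 of 5 markers lower, but 0.11 under median scaling or without WT 2 and -0.57 with slide as a block. The lists of luminal epithelium, adipocytes, endothelium, fibroblasts and myoepithelium had medians between 0.13 and 0.48. Only Myh11 of the myoepithelial list had an unadjusted limma p under 0.05, beside 5.62% of all probes. It was at 0.48 with a p of 0.0147 and an adjusted p of 0.654, and at 0.28 with slide as a block. The adipocyte median, the highest, was 0.07 without WT 1 and 0.15 with slide as a block, that of fibroblasts 0.07 without WT 1, and that of myoepithelium 0.16 without WT 2. The endothelial median turned to -0.25 with slide as a block, and the luminal one to -0.03 without WT 2 and -0.02 without scaling. In whole gland RNA, fewer cells of a type and less RNA per cell cannot be told apart.

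Over the 9 arrays, Gdf15 had a Pearson r of 0.69 with the mean level of the muscle markers (exact permutation p = 0.0436, adjusted over 8 marker lists 0.349) and a Spearman rho of 0.62 (exact permutation p = 0.0857, adjusted 0.229). The r was 0.57 within genotype, 0.19 within slide, and 0.56 without the 2 arrays farthest from the median marker level. With the luminal markers r was -0.59 (exact permutation p = 0.0876, adjusted 0.35) and rho -0.72 (exact permutation p = 0.0369, adjusted 0.229). There r was -0.56 within genotype, -0.32 within slide and -0.69 without the 2 farthest arrays. For macrophage markers r was 0.50 (exact permutation p = 0.168, adjusted 0.392) and rho 0.62 (exact permutation p = 0.0857, adjusted 0.229). Their r was 0.64 within genotype (exact permutation p = 0.0944), 0.65 within slide (exact permutation p = 0.0885) and 0.82 without the 2 farthest arrays. No list passed an adjusted p of 0.05, and the part of these cells in the Gdf15 difference was not tested.

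Of the 10 probes of the other 8 genes, none had an unadjusted limma p under 0.05, against 5.62% of all probes. Their p-values ran from 0.14 to 0.98, and 5 were higher and 5 lower in hNAG-1. None of the 11 probes separated the genotypes without overlap, which 1.38% of all probes did, and none had an adjusted p under 0.05. The median difference of the 10 probes was -0.0039, beside -0.0144 over all probes. Their median SD over the 9 arrays, 0.38 on the log2 scale, equalled that of all probes.

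Atf4, the central transcription factor of the response, was at 3369, 2615, 4839 and 3854 in WT 1 to 4. In hNAG-1 1 to 5 it was at 5035, 4799, 3845, 5090 and 3613. hNAG-1 1, 2 and 4 and WT 3 stood near the top of the range and WT 2 at its bottom, so the genotypes overlapped. The difference was 0.31 with a 95% interval from -0.16 to 0.77 and an exact permutation p of 0.19, and with slide as a block it was -0.02. It was 0.16 without WT 2 and 0.45 without WT 3. ATF4 is controlled mostly through translation, which an array of RNA does not measure.

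Ddit3 encodes CHOP, the partner and target of ATF4 that is linked to cell death under lasting stress. Its scaled intensity was 313.3, 497.3, 442.1 and 533.7 in WT 1 to 4 and 465.1, 242.2, 431.4, 505.3 and 556.7 in hNAG-1 1 to 5. The lowest and the highest value of all 9 arrays were both in hNAG-1. The difference was -0.05 with a 95% interval from -0.65 to 0.56, and its direction turned with slide in the fit, where it was 0.19.

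Atf3, a stress-induced repressor and activator that ATF4 switches on, had the largest positive difference of the set. It was at 432.3, 363.1, 697 and 1015 in WT 1 to 4 and at 562.7, 577.7, 880.5, 1007 and 1081 in hNAG-1 1 to 5. WT 4 lay among the 3 brightest hNAG-1 glands, and WT 1 and WT 2 lay below all hNAG-1 glands. The difference was 0.46 with a 95% interval from -0.31 to 1.23 and an exact permutation p of 0.246. Without WT 4 it was 0.73 with an unadjusted limma p of 0.0488, without WT 2 it was 0.23, and with array weights 0.06.

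Trib3, a pseudokinase that ATF4 and CHOP induce and that restrains them in turn, was measured by 2 probes. Probe A_51_P331570 read 10623, 4191, 6034 and 8530 in WT 1 to 4 and 7048, 5079, 5927, 5589 and 6813 in hNAG-1 1 to 5. Probe A_52_P600274 read 1642, 891.7, 830.8 and 1421 in WT and 1167, 1081, 1131, 1162 and 1147 in hNAG-1. Both probes put WT 1 and WT 4 above every hNAG-1 gland, and for the second the other 2 WT glands lay below every hNAG-1 gland. The differences between the means were -0.19 and -0.01, with 95% intervals from -0.79 to 0.40 and from -0.50 to 0.48. The SD of log2 values was 0.59 and 0.49 in WT against 0.20 and 0.04 in hNAG-1, given as a description with no test. Over the 9 arrays the probes had r = 0.83 (exact permutation p = 0.00715), rho = 0.77 (exact permutation p = 0.0214), and r = 0.58 without the 2 farthest arrays.

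Asns, asparagine synthetase, is the classic amino acid response target of ATF4. It was at 85725, 52030, 74547 and 69690 in WT 1 to 4 and at 77570, 70659, 67707, 78375 and 82160 in hNAG-1 1 to 5. WT glands held both the highest and the lowest value. The difference was 0.11 with a 95% interval from -0.27 to 0.49. Without scaling of the arrays it was -0.04.

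Egr1, an immediate early transcription factor, was lower on average in hNAG-1. Its scaled intensity was 900.6, 1497, 1065 and 1186 in WT 1 to 4 and 1039, 821.7, 855.2, 1175 and 411.6 in hNAG-1 1 to 5. hNAG-1 5 was the lowest of all arrays, and 3 of 5 hNAG-1 glands lay below all WT glands. The difference was -0.49 with a 95% interval from -1.18 to 0.19 and an exact permutation p of 0.159, and without hNAG-1 5 it was -0.25. With slide as a block it was -1.59 with a standard error of 0.32, an unadjusted limma p of 0.00123 and an adjusted p of 0.11. That value compares hNAG-1 5 alone with WT 2 to 4 on slide 3, so 1 gland decides it.

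**Figure D2:**
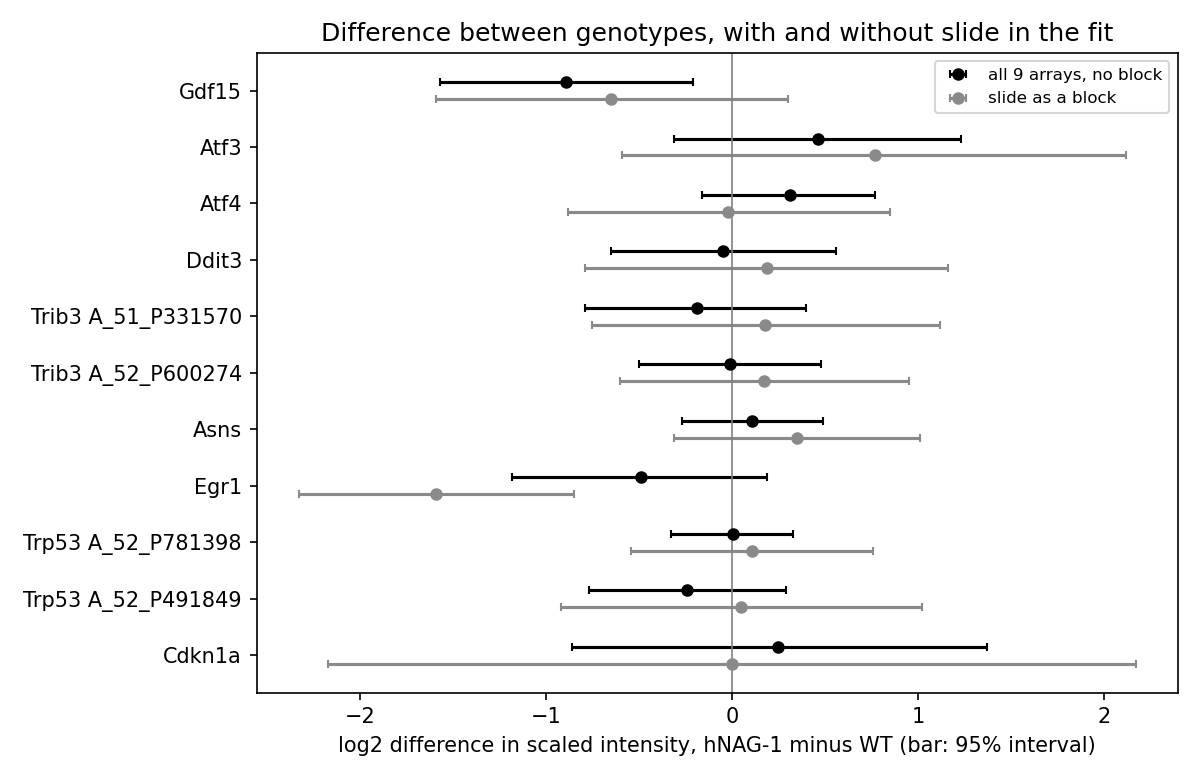
Difference in log2 scaled intensity, hNAG-1 minus WT, for the 11 probes with its 95% interval, in the fit without a block (black) and with slide as a block (grey). Without the block the interval of Gdf15 alone leaves out 0, from -1.57 to -0.21, and with the block that of Egr1 alone does, around -1.59.

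Trp53 encodes p53, which answers DNA damage and other stresses. Its brighter probe, A_52_P781398, read 1803, 1772, 1830 and 1792 in WT 1 to 4 and 2131, 1742, 1438, 1845 and 1938 in hNAG-1 1 to 5. The WT values lay inside the range of hNAG-1, and the difference was 0.0039 with a 95% interval from -0.33 to 0.33. The second probe, A_52_P491849, read 231.3, 351.6, 226.3 and 240.5 in WT and 189.4, 159.4, 195.1, 305.8 and 276.9 in hNAG-1. There 3 of 5 hNAG-1 glands lay below all WT glands, and the difference was -0.24 with a 95% interval from -0.77 to 0.29. It was -0.09 without WT 2, the brightest array for this probe. The probes gave different patterns over the arrays, with r = 0.14 (exact permutation p = 0.736), rho = 0.17 (exact permutation p = 0.678), and r = 0.39 without the 2 farthest arrays. In build mm7 the first lies at chr11:69662031-69662089 and the second at chr11:69671206-69671265.

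Cdkn1a encodes p21, the cell cycle inhibitor that p53 switches on, and it varied most of the set from gland to gland. It was at 394.9, 242.2, 754.3 and 231.0 in WT 1 to 4 and at 908.8, 325.5, 208.3, 674.4 and 348.1 in hNAG-1 1 to 5. The highest array was 4.36 times the lowest, and both of these were hNAG-1 glands. The difference was 0.25 with a 95% interval from -0.86 to 1.37 and an exact permutation p of 0.675. Cdkn1a was printed as 10 spots on each array, whose median SD within an array was 0.0505 on the log2 scale, against 0.794 between WT arrays and 0.857 between hNAG-1 arrays. The second Trp53 probe also had 10 spots, with 0.0926 within an array against 0.300 and 0.396 between arrays. Spots of 1 array share its labelling, hybridisation and scaling, so their SD leaves those sources of error out.

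The other question was whether Gdf15 follows its stress regulators from gland to gland. Over the 9 arrays, none of the 10 probes had an exact permutation p under 0.05 for its correlation with Gdf15, and none had an unadjusted p under 0.05 in limma, against 8.64% of all other probes. That share was 4.16% without hNAG-1 2 and 1.8% with slide as a block. The r values were positive for 5 probes and negative for 5, with a median of -0.01. Among the 23085 other probes well above background on all arrays the median r was -0.04, and 5% of them lay below -0.64 and 5% above 0.62. In limma, no probe on the array had an adjusted p under 0.05 for this relation. The 10 relations were adjusted together with those of all other probes.

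By Pearson r the second Trp53 probe and Ddit3 came closest, and by rho the second Trp53 probe and Egr1. For Trp53 probe A_52_P491849, r was 0.62 (exact permutation p = 0.0737), rho 0.68 (exact permutation p = 0.0503) and the limma adjusted p 0.596. The r of this probe was 0.75 without the 2 arrays farthest from the median Gdf15 level, which were WT 3 and hNAG-1 2, and 0.57 within genotype and 0.37 within slide. Leaving out 1 array gave r from 0.43, without hNAG-1 2, to 0.85, without WT 3, where the exact permutation p was 0.00962. The brighter Trp53 probe had r = 0.01 (exact permutation p = 0.985) and rho = 0.12 (exact permutation p = 0.776). Whether the 2 probes of the gene differ in this relation was not tested.

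For Ddit3, r was 0.58 (exact permutation p = 0.108), rho 0.53 (exact permutation p = 0.148) and the limma adjusted p 0.616. It was 0.43 without the 2 farthest arrays and 0.36 within slide, and leaving out 1 array gave 0.25, without hNAG-1 2, to 0.71. Within genotype, after the genotype means were taken out, r of Ddit3 was 0.77 with an exact permutation p of 0.024, and Ddit3 was the only one of the 10 probes with a p under 0.05 there. In limma its unadjusted p within genotype was 0.0224 and its adjusted p 1, and 3.6% of all other probes had an unadjusted p under 0.05 in that fit. Within genotype, hNAG-1 2 was low in both genes and WT 1 was low in both.

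The other factors and targets of the response gave lower r values. For Atf4, r was -0.33 (exact permutation p = 0.38) and rho -0.23 (exact permutation p = 0.552), and r was 0.05 within genotype and -0.67 without the 2 farthest arrays. For Atf3, r was 0.06 (exact permutation p = 0.868) and rho 0.15 (exact permutation p = 0.708), and r was 0.58 within genotype with an exact permutation p of 0.14. For the Trib3 probes r was -0.06 and -0.40, and for Asns -0.29, with exact permutation p-values of 0.878, 0.292 and 0.452.

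For Egr1, r was 0.30 (exact permutation p = 0.452) and rho 0.58 (exact permutation p = 0.108), with r = -0.10 within genotype and 0.59 within slide. For Cdkn1a, r was -0.02 (exact permutation p = 0.956) and rho -0.02 (exact permutation p = 0.982), with r = 0.15 within genotype and -0.63 without the 2 farthest arrays.

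**Figure D3:**
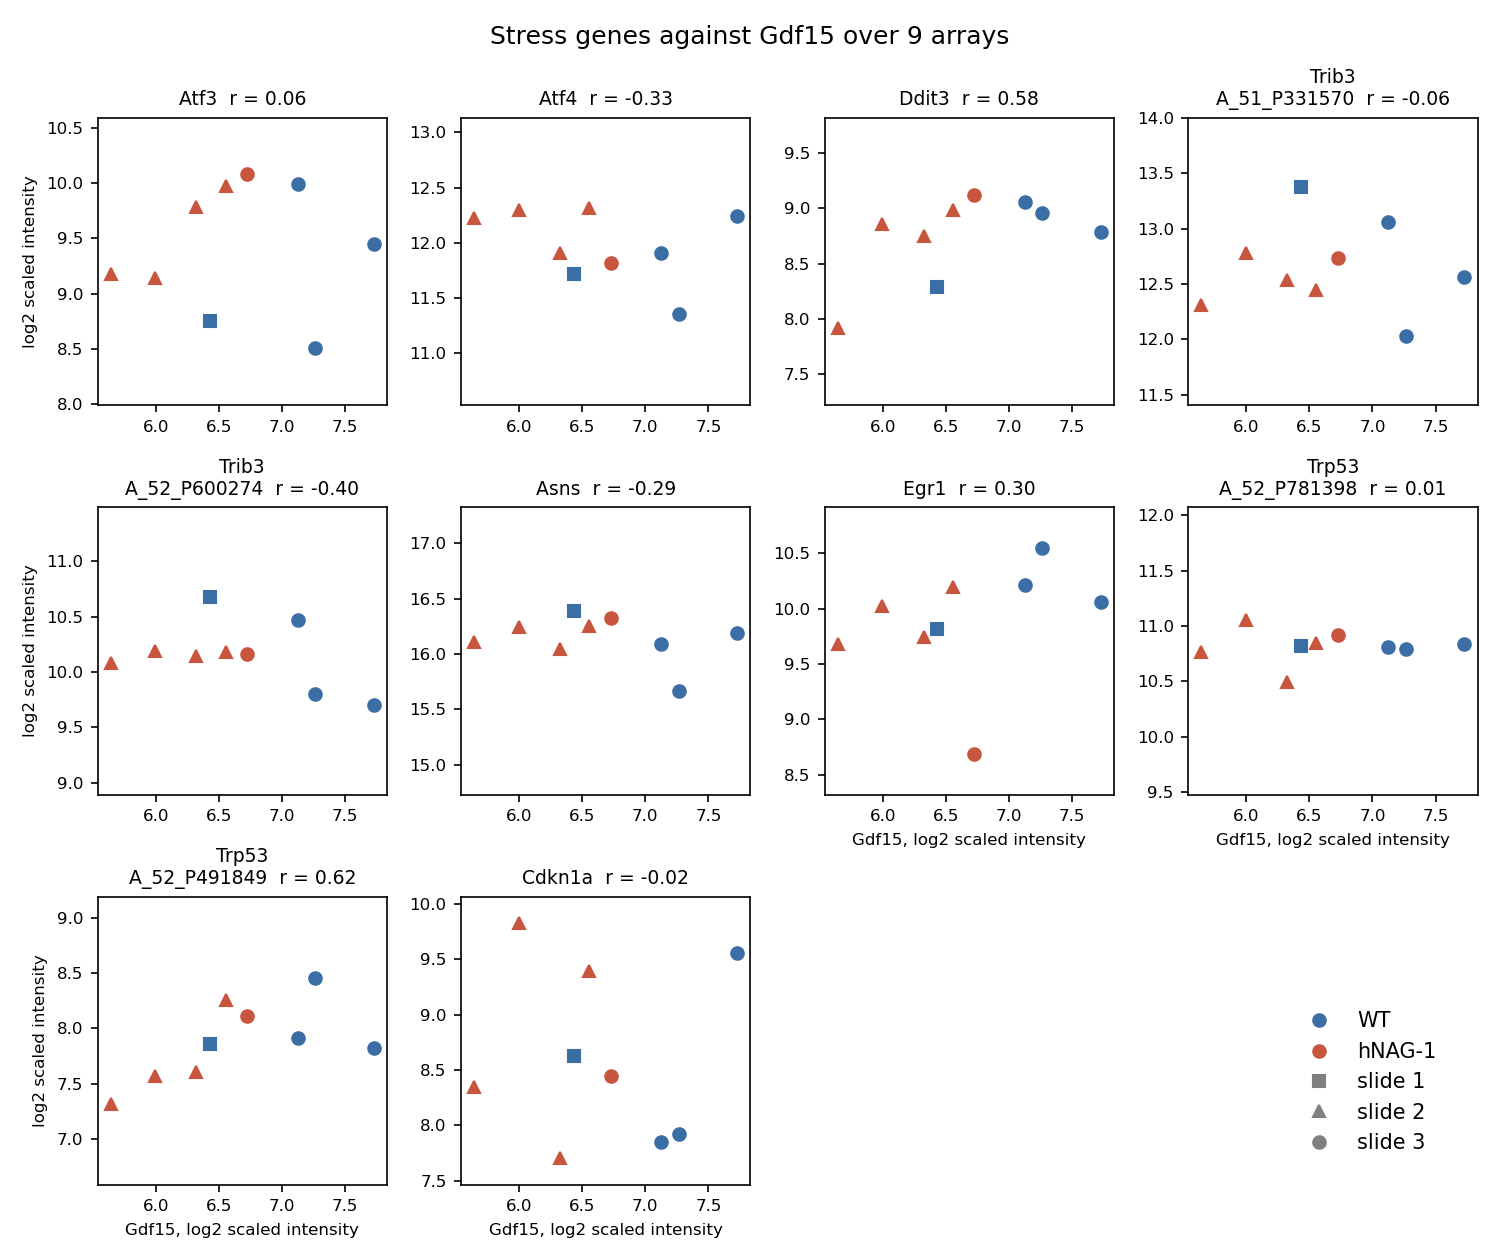
Log2 scaled intensity of the 10 probes of the other 8 genes (vertical, 1 panel a probe, each spanning the same range) against that of Gdf15 (horizontal) on the 9 arrays, coloured by genotype and shaped by slide. The red points of Ddit3 and of Atf3 climb with Gdf15, while over both genotypes r is 0.58 and 0.06.

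**Figure D4:**
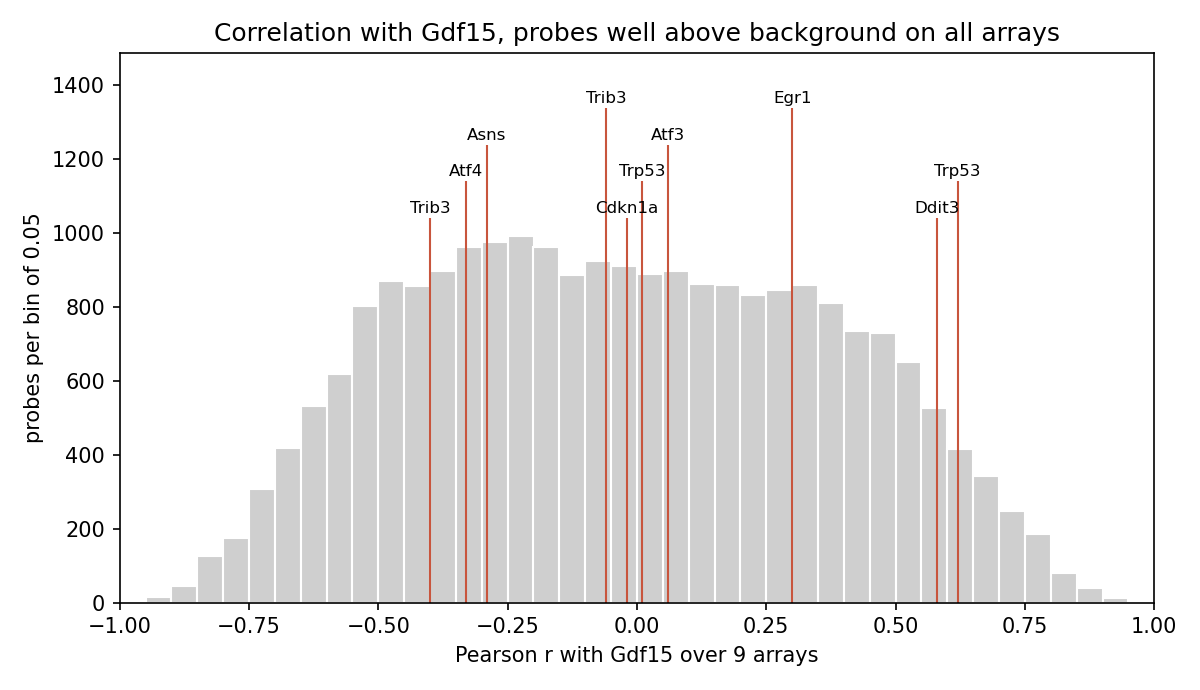
Number of probes by their Pearson r with Gdf15 over the 9 arrays, among 23085 probes well above background on all arrays, with the 10 probes of the other 8 genes as red lines. The lines run from -0.40 to 0.62, and the one farthest to the right, Trp53 probe A_52_P491849, has 4.92% of those probes above it.

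The level of Gdf15 was also set against the brightness of the arrays. With the log2 75th percentile before scaling r was 0.47 (exact permutation p = 0.199) and rho 0.57 (exact permutation p = 0.121). With the percentage of features well above background r was 0.60 (exact permutation p = 0.0903), rho 0.67 (exact permutation p = 0.0589), r within genotype 0.32 and r without the 2 farthest arrays 0.47. The part of array quality in the Gdf15 values was not tested.

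The 5 genes whose levels followed Gdf15 most closely over the 9 arrays were not stress regulators of the set. They were Arnt, the partner of the aryl hydrocarbon receptor, at r = 0.94, the antimicrobial peptide gene Defb1 at 0.94, Rp2h, Gpr97 and Tpr, each at 0.92. They are the top of 23085 probes and so were chosen for these values. Within genotype their r lay between 0.83 and 0.88, within slide between 0.69 and 0.90, and their limma adjusted p for the relation between 0.477 and 0.564. Defb1 had a mean of 2183 in WT and 464.0 in hNAG-1, a difference of -1.99. Gdf15 was lower in hNAG-1, and a gene picked for following it tends to be lower too, so this difference is no separate result.

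Among the 87 measured genes of the pathway lists described next, 3 had an unadjusted limma p under 0.05 for the relation to Gdf15, or 3.45% beside the 8.64% of all probes, and none an adjusted one. They are named because their number is small, after their values were seen. The p53 target Rrm2b, a ribonucleotide reductase subunit, had r = 0.91 (exact permutation p = 0.000369) and rho = 0.93 (exact permutation p = 0.00075), close to the 5 genes above, with r = 0.88 within genotype, 0.79 within slide and 0.87 without the 2 farthest arrays. Its limma adjusted p was 0.56. The other 2 ran against Gdf15. Eif2b5, a subunit of the exchange factor for eIF2, had r = -0.83 (exact permutation p = 0.00567) and rho = -0.82 (exact permutation p = 0.0108), and Pycr1 had r = -0.74 (exact permutation p = 0.022) and rho = -0.67 (exact permutation p = 0.0589). Without the 2 farthest arrays their r was -0.80 and -0.70, within genotype -0.64 and -0.40, and within slide -0.70 and -0.61. By the exact permutation test Eif2b4 (r = -0.69, p = 0.0384) and Ppp1r15b (r = -0.67, p = 0.0467) were under 0.05 as well, with unadjusted limma p-values of 0.0503 and 0.0686. The median r of the 87 genes was -0.15, beside -0.04 over the probes well above background. By list it was -0.54 for kinases and regulators of eIF2 and -0.30 for ATF4 and CHOP targets. It was -0.07 for p53 targets, -0.08 for immediate early genes and 0.14 for genes that receive or process GDF15.

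The wider pathway was read from 5 lists of 88 genes, of which 87 were matched to a probe. In all, 8 of the 87 genes had an unadjusted limma p under 0.05, or 9.2% beside 5.62% of all probes, 5 higher and 3 lower in hNAG-1. None had an adjusted p under 0.05. The median difference of the 87 genes was 0.07. The medians of the 5 lists moved with the scaling, as those of all probes did, and lay between 0.23 and 0.38 under median scaling and between -0.13 and 0.02 without scaling.

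Of the kinases and regulators of eIF2, 9 of 12 had a higher mean in hNAG-1 and 3 a lower one, with a median of 0.17 (0.16 with slide as a block, where 7 were higher and 5 lower, and 0.08 without WT 2). Only Eif2b3, a subunit of the exchange factor that recharges eIF2, had an unadjusted p under 0.05, beside 5.62% of all probes. It was at 41.6, 27.3, 36.6 and 25.8 in WT 1 to 4 and at 23.0, 18.1, 10.6, 11.8 and 21.1 in hNAG-1 1 to 5, with no overlap, as for 1.38% of all probes. The difference was -0.99 with a standard error of 0.28, an unadjusted limma p of 0.00572 and an adjusted p of 0.654, and the probe was well above background in 4 of 4 WT glands but 1 of 5 hNAG-1 glands. The hNAG-1 values therefore lie near background, and the call was lost with normexp, at -0.11 (unadjusted limma p of 0.57), after quantile normalization, at -0.50 (unadjusted limma p of 0.122), and with slide as a block, at -0.48 (unadjusted limma p of 0.333). Eif2s1, the phosphorylated subunit itself, had the largest positive difference of the list at 0.36, with an unadjusted limma p of 0.125, and was at 0.21 without WT 2 and 0.15 with slide as a block.

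Of the ATF4 and CHOP target genes, 25 of 32 had a higher mean in hNAG-1 and 7 a lower one, with a median of 0.08 (0.21 with slide as a block, -0.07 without scaling and -0.01 without WT 2). Without WT 2, 14 were higher and 18 lower. An unadjusted p under 0.05 was reached upwards by 2 of them and downwards by 1, beside 495 upwards and 1820 downwards of all 41174 probes. Ddit4, an inhibitor of mTORC1, had a WT mean of 11414 ± 2816 (SD, n = 4) and an hNAG-1 mean of 15259 ± 1968 (SD, n = 5). Its difference was 0.44 with an unadjusted limma p of 0.0441, and 0.21 with slide as a block (unadjusted limma p of 0.565). Pycr1, an enzyme of proline synthesis, had a WT mean of 976.2 ± 175.0 (SD, n = 4) and an hNAG-1 mean of 1318 ± 126 (SD, n = 5). Its difference was 0.44 with an unadjusted limma p of 0.0193, and 0.77 with slide as a block.

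Slc7a11, the cystine transporter of the list, went the other way by the brightest of its 4 probes, the only one given here. It was at 53.5, 54.9, 31.3 and 37.7 in WT 1 to 4 and at 24.6, 17.4, 25.8, 27.4 and 25.7 in hNAG-1 1 to 5, with no overlap, as for 1.38% of all probes. The difference was -0.85 with a standard error of 0.22, an unadjusted limma p of 0.00361 and an adjusted p of 0.654. The probe was well above background in 4 of 4 WT glands and 2 of 5 hNAG-1 glands. The call was lost with normexp, at -0.25 (unadjusted limma p of 0.0999), after quantile normalization, at -0.51 (unadjusted limma p of 0.141), and with slide as a block, at -0.64 (unadjusted limma p of 0.142). Fgf21, the other stress hormone of this list, was not well above background on any array, so no level is given.

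**Figure D5:**
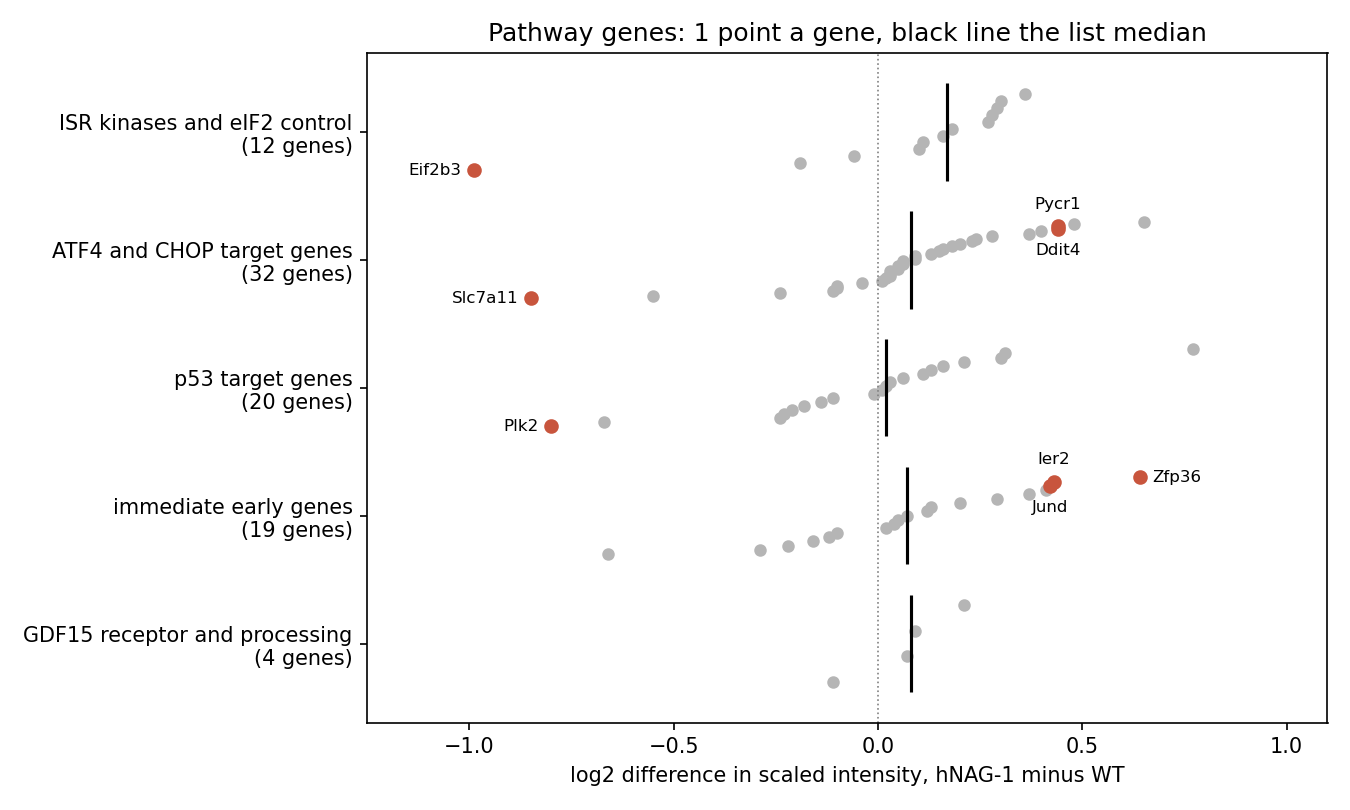
Difference in log2 scaled intensity, hNAG-1 minus WT, of the 87 measured pathway genes in 5 lists, 1 point a gene, with the median of a list as a black line and genes with an unadjusted limma p under 0.05 in red. The medians lie between 0.02 and 0.17, and of the 8 red points 5 are above 0 and 3 below. Fgf21 and Ret are drawn although no array had their probes well above background.

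Of the p53 target genes, 11 of 20 had a higher mean in hNAG-1 and 9 a lower one, with a median of 0.02. Under median scaling 16 were higher and 4 lower, and without scaling 5 were higher and 15 lower. Plk2, a kinase of the polo family, was the only one with an unadjusted p under 0.05, beside 5.62% of all probes. It had a WT mean of 649.6 ± 419.4 (SD, n = 4) and an hNAG-1 mean of 335.7 ± 67.1 (SD, n = 5). Its difference was -0.80 with an unadjusted limma p of 0.0416, and without WT 1, which was at 1278, it was -0.41 with an unadjusted limma p of 0.0628. With slide as a block it was -0.59 with an unadjusted limma p of 0.0923. Phlda3 had the largest positive difference at 0.77 with an unadjusted limma p of 0.106. It was 1.17 without WT 4, with an unadjusted limma p of 0.00853, and 0.49 without WT 1.

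Of the immediate early genes, 13 of 19 had a higher mean in hNAG-1 and 6 a lower one, with a median of 0.07. The median was -0.32 with slide as a block, -0.08 without scaling and -0.01 without WT 3. It was 0.28 under median scaling, 0.28 without WT 4 and 0.20 without hNAG-1 1. An unadjusted p under 0.05 was reached by 3, all of them higher, beside 495 of all 41174 probes that reached it with a higher level. None of the 19 reached it without WT 1 or without scaling. Ier2 was at 2034, 2378, 2683 and 2657 in WT 1 to 4 and at 3715, 2889, 3577, 3003 and 3207 in hNAG-1 1 to 5, without overlap, and its difference was 0.43 with an unadjusted limma p of 0.0181, and 0.32 with slide as a block (unadjusted limma p of 0.258). Jund, a partner in the AP-1 factor, had a WT mean of 34036 ± 5444 (SD, n = 4) and an hNAG-1 mean of 45500 ± 7889 (SD, n = 5), also without overlap, as for 1.38% of all probes. The Jund difference was 0.42 with an unadjusted limma p of 0.0431, and 0.30 with slide as a block (unadjusted limma p of 0.397). Zfp36, which marks messenger RNA for decay, had a WT mean of 1206 ± 276 (SD, n = 4) and an hNAG-1 mean of 1878 ± 421 (SD, n = 5). Ier2 and Zfp36 have 2 probes each, and only the brighter is given. The Zfp36 difference was 0.64 with an unadjusted limma p of 0.0205, and 0.01 with slide as a block. Egr2, a relative of Egr1, was at -0.22 with an unadjusted limma p of 0.521. With slide as a block Egr2 was at -1.16 and Myc at -0.85, while Jun was at 1.31 and Ier3 at 1.32. In that fit 9 of the 19 genes were higher and 10 lower, and its values again rest on hNAG-1 5. Egr3 was well above background in 2 of 4 WT and 1 of 5 hNAG-1 glands, so its difference of -0.66 (unadjusted limma p of 0.326) rests on values near background, and it was -0.05 without WT 2.

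Of the genes that receive or process GDF15, none of the 4 measured had an unadjusted p under 0.05. Ret, the coreceptor, was not well above background on any array, and Gfral was matched to no probe. Furin, Pcsk5 and Pcsk6, proprotein convertases of the kind that cut the precursor, differed by 0.09, 0.07 and 0.21 with unadjusted limma p-values of 0.698, 0.735 and 0.526, and by 0.35, -0.05 and 0.47 with slide as a block.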

How the data were processed

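RNA of individual glands was labelled with Cy3 by the study and hybridised to Agilent whole mouse genome arrays of design 014868. The authors deposited each array's intensity per feature as written by Feature Extraction 9.5.3.1, with the background subtracted and no scaling between arrays. Arrays have no read depth, so their number sets the precision. The methods name an ANOVA with a p of 0.05, a fold of 1.5 and an intensity of 65.

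From each array 1639 control features were left out, spots of 1 probe were averaged, and arrays were scaled to their 75th percentile over the remaining probes before log2. Genotypes were compared by limma 3.58.1 in R 4.3.3 (lmFit and eBayes, two-sided, no covariates), with Benjamini-Hochberg adjustment over 41174 probes. The relation to Gdf15 used limma with the Gdf15 level as the only term. Exact permutation tests, two-sided, ran over 126 splits of the arrays, 362880 pairings, 2880 pairings within genotype or 576 within slide, in Python 3.11.15 with scipy 1.17.1. Both tests were checked on simulated data. Replicates are separate dams. Slide was read from the labels.

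The genes, the lists and the rule for named genes were chosen with earlier results of these data known: all probes of the 9 genes, and of each list the largest rise, the largest fall and any gene with an unadjusted p under 0.05 whose genotypes do not overlap, plus the 5 genes most like Gdf15. Ddit4, Pycr1, Egr2, Myc, Jun, Ier3, Furin, Pcsk5, Rrm2b, Eif2b5, Eif2b4, Ppp1r15b, Ppp1r15a, Psat1 and the marker Myh11 were named after their values were seen. For a gene with several probes the brightest was used in lists. Gene names are those of the array design, matched also through 22951 accessions to RefSeq. Coordinates of probes are in mm7 and those of promoters in GRCm38.p6. The alternatives were median scaling, no scaling, quantile normalization, normexp with an offset of 50, a floor of 20, spots with outlier flags removed, only probes well above background, each dam left out, slide as a fixed or random block or slide 3 alone, a replicate block, trend with robust estimation, array weights, the methods' ANOVA, the mean over a gene's probes, genotype as a term, rho, and leaving out 2 far arrays. The marker lists with 1 array left out and the pathway genes against Gdf15 were added after seeing the data. Fgf21 and Ret were not well above background on any array, so no difference is given for them in the text. They still count in the numbers and medians of their lists and are drawn in the figure of the lists.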

Additional observations from a re-analysis of the deposited data

Results flagged for a closer look

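In 46 groups of values, 3 arrays stood apart from the rest of their genotype by more than Dixon's critical value at the 95% level. Chance alone gives about 1 in 20 groups. The groups were 2 for each probe of the 9 genes and of the pathway genes named above. Left out were Egr2, Myc, Jun, Ier3, Furin, Pcsk5, Rrm2b, Eif2b5, Eif2b4, Ppp1r15b, Ppp1r15a, Psat1, Fgf21 and Ret. Trp53 probe A_52_P491849 was at 351.6 in WT 2, the highest of WT. Plk2 was at 1278 in WT 1, the highest of WT. Slc7a11 was at 17.4 in hNAG-1 2, the lowest of hNAG-1.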

How the results depend on the processing

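Gdf15 was lower in hNAG-1 under all 23 alternatives, from -1.12 to -0.48, and its unadjusted p was above 0.05 in 3 of them: slide as a block at -0.65, slide 3 alone at -0.65, and without WT 3 at -0.69. Leaving out 1 array gave -1.12 to -0.69. The shared replicate numbers do not pair the arrays, since same-numbered arrays deviated with correlations of 0.279, -0.199, -0.142 and -0.307, and with the replicate number as a block Gdf15 was at -1.01, the brighter Trp53 probe at -0.02, and the pathway count at 4 beside 13.1% of all probes.

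Of the 10 other probes, 1 had a p under 0.05 with slide as a block and on slide 3 alone, which was Egr1, and leaving out 1 array gave 0 to 1, the 1 being Atf3 without WT 4. Of the 87 pathway genes 8 had a p under 0.05 in the reported fit (5.62% of all probes), 12 with median scaling (8.76%), 3 without scaling (5.02%), 4 after quantile normalization (6.36%), 2 on slide 3 alone (8.99%), and 3 to 8 when 1 array was left out, 3 without WT 1 (4.98%) and 5 without hNAG-1 1 (6.91%) or hNAG-1 3 (3.66%). Each of the 8 had a p above 0.05 in at least 4 of 23 alternatives, Ddit4 and Plk2 in 13 and Jund in 12. The count of relations to Gdf15 with a p under 0.05 went from 0 to 1 of 10 with genotype as a term (3.6% of all probes), 3 without scaling (Ddit3 and both Trp53 probes, beside 36.3% of all probes), and 0 to 2 when 1 array was left out, the 2 being Atf4, at r = -0.70, and Trp53 probe A_52_P491849, at 0.85, without WT 3 (10.3% of all probes).

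Over all probes, 2315 had an unadjusted p under 0.05 in the reported fit, 1061 with normexp, 3608 with median scaling, 6264 with array weights, 1499 with slide as a random block, 3700 on slide 3 alone and 5407 with the replicate number as a block. Leaving out 1 array gave 1163 to 5909, with 1163 without hNAG-1 2, 1509 without hNAG-1 3 and 5909 without hNAG-1 5.

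Differences of the 9 genes and of the pathway genes named by rule changed sign as follows, none with a p under 0.05. Median scaling and no scaling move the difference of every probe by the same amount, the median over all probes going from -0.01 to 0.20 and to -0.16, so sign changes under these settings follow from that shift. For the other settings the cause was not tested. With median scaling Ddit3 was at 0.16, the Trib3 probes A_51_P331570 and A_52_P600274 at 0.02 and 0.20. Without scaling Asns was at -0.04 and the brighter Trp53 probe, A_52_P781398, at -0.15. Quantile normalization put that probe at -0.03 and normexp at -0.01. Array weights put A_52_P600274 at 0.01, A_52_P781398 at -0.04 and Pcsk6 at -0.08. With slide as a block, and on slide 3 alone, Atf4 was at -0.02, Ddit3 at 0.19, the Trib3 probes at 0.18 and 0.17, A_52_P491849 at 0.05 and Cdkn1a at -0.00058. Among the other pathway genes, Ppp1r15a went from -0.19 to 0.70 (limma p of 0.048) and Psat1 from -0.10 to 0.88 (limma p of 0.0453) with slide as a block. Leaving out 1 array gave -0.21 to 0.15 for Ddit3, -0.44 to 0.01 and -0.17 to 0.16 for the Trib3 probes, -0.02 to 0.22 for Asns, -0.06 to 0.09 for A_52_P781398, -0.02 to 0.61 for Cdkn1a and -0.05 to 0.38 for Pcsk6.

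Correlations with Gdf15 changed sign as well. Arrays left unscaled keep their brightness, which all probes of an array share, and 14928 of the 14956 probes with a p under 0.05 then had a positive relation, so a sign change there follows from the setting and says nothing of the gene. With median scaling r was -0.06 for Atf3 and -0.64 for A_52_P781398. Without scaling it was 0.37 for Atf4, 0.46 and 0.37 for the Trib3 probes, 0.64 for Asns and 0.07 for Cdkn1a. Quantile normalization gave -0.05 for A_52_P781398, and normexp -0.01 for Atf3, 0.05 for A_51_P331570 and 0.24 for Cdkn1a. With slide in the fit r was 0.21 for Atf4, -0.23 for A_52_P781398 and 0.34 for Cdkn1a, and with genotype 0.05 for Atf4, -0.10 for Egr1 and 0.15 for Cdkn1a. Without the 2 farthest arrays it was -0.04 for Atf3 and -0.14 for A_52_P781398. Leaving out 1 array gave -0.04 to 0.38 for Atf3, -0.31 to 0.19 for A_51_P331570, -0.43 to 0.02 for Asns, -0.25 to 0.32 for A_52_P781398 and -0.43 to 0.25 for Cdkn1a.

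Slide and genotype overlap on slide 3 only, through 1 hNAG-1 array. A probe near background, such as those of Eif2b3, Slc7a11, Fgf21, Egr3 and Ret, carries less signal to compare.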
